A study of Homo sapiens with 8 samples.

Results

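Interferon-induced antiviral effectors are the genes that cells switch on after interferon has signalled and whose products act against viruses. A list of 39 genes, such effectors together with the interferon regulatory factors (IRF) that govern them, was followed in PNT2, a cell line that was immortalized from human prostate epithelium. A gene counted as measured where a row of the deposited array table carries its symbol and no other. This held for 34 of the 39 genes, each with 1 row, among 18495 rows in all. Of the other 5, USP18, IFITM2, IFITM3 and GBP1 appear only in rows shared with another gene, and XAF1 was not analysed here.

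The series holds 8 Affymetrix human exon arrays, 1 per sample. Of these, 4 arrays, written siESRP, come from cells that received small interfering RNA (siRNA) directed at the epithelial splicing factors ESRP1 and ESRP2 together. The other 4 arrays, written siGFP, come from PNT2 cells given siRNA against green fluorescent protein, the control. All samples share the cell line, the medium and siRNA transfection, and no interferon or virus is named in the labels. No untransfected cells are among the samples, so a level lowered in siESRP cannot be told from one raised in siGFP. Nothing in the labels tells separate cultures from repeats of 1 culture, so a p-value here rests on the spread among these arrays, and that spread may be technical.

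Type I interferons bind the receptor formed by IFNAR1 and IFNAR2, and the kinases JAK1 and TYK2 then pass the signal on by phosphorylation. A complex that holds IRF9 enters the nucleus and binds the interferon-stimulated response element (ISRE) in front of its target genes. The products act at many steps: IFITM proteins hinder entry of virus at membranes, IFIT proteins bind foreign RNA, MX proteins trap viral particles, RSAD2 makes a nucleotide analogue that stops viral polymerases, and ISG15 is attached to proteins like ubiquitin. Epithelial cells can keep such genes at a low level without infection, and IRF7, itself induced by interferon, amplifies the response.

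Values are intensities after quantile normalization, given for replicates 1 to 4 in that order. Differences are siESRP minus siGFP on the log2(intensity + 1) scale with the standard error (SE), folds are from the same scale, and a gene is said to have fallen or risen only at a limma adjusted p under 0.05 over all 18495 rows. ESRP1 ran from 2232 to 2617 on the siGFP arrays and from 499 to 660.3 on the siESRP arrays, so this target matched the labels; ESRP2 shares its row with another gene and was not checked. Of 9 measured epithelial genes 4 were called higher in siESRP and 1 lower, and the sum of the 9 was 24254 to 25469 in siGFP and 27444 to 28225 in siESRP. CDH1, the adhesion protein E-cadherin, was 1.42-fold higher (limma adjusted p = 0.00182), with KRT18, KRT19 and the less bright KRT15 also higher, and the basal keratin KRT14 was 2.06-fold lower (adjusted p = 0.00465). All 5 were called whichever array was left out, and their part in the members' differences was not tested. Others were bright without a call, with KRT8 at 6690 ± 411 and 6964 ± 289 and EPCAM at 3386 ± 328 and 3120 ± 145 (siGFP and siESRP, SD, n = 4 each), while the luminal prostate gene KLK3 was at 61.7 and 65.2. The arrays as deposited had medians from 233 to 286.

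The promoters below are shown because the ISRE is a sequence through which interferon can reach its target genes, though not every member holds a match. They are the 250 bases before the transcription start from RefSeq (GRCh38.p14), which held a promoter for 29 of the 34 measured members and none for IFIT2, MX2, IRF2, IRF3 and IRF7. The first 4 belong to the members with the largest falls that have a promoter there: RSAD2 (chr2:6877527-6877776, plus strand), ISG15 (chr1:1013247-1013496, plus strand), IFI44L (chr1:78620198-78620447, plus strand) and IFITM1 (chr11:313790-314039, plus strand). The last 2 belong to ISG20 (chr15:88638766-88639015, plus strand) and IRF1 (chr5:132490774-132491023, minus strand). Among the members not called that have a promoter there and a mean of at least 100, their log2 differences were the smallest in size. Each reads 5′ to 3′ on the strand of its gene. Capitals mark every match, on either strand, to the ISRE core, searched as GAAA, a gap of any 2 bases, and GAAA again.
RSAD2: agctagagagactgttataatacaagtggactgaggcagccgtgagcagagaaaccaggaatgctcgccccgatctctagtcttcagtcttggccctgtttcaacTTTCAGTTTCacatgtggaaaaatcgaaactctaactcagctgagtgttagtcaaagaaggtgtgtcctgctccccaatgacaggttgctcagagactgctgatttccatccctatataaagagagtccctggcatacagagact
ISG15: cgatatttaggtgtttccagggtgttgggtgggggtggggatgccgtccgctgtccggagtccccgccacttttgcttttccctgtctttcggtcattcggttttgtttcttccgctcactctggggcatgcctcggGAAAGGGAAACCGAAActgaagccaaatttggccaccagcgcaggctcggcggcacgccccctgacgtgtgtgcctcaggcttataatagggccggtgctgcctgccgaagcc
IFI44L: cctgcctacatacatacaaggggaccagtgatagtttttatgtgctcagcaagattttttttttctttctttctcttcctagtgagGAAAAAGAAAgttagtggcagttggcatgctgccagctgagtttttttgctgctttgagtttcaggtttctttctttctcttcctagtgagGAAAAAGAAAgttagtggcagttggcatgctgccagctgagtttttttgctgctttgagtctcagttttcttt
IFITM1: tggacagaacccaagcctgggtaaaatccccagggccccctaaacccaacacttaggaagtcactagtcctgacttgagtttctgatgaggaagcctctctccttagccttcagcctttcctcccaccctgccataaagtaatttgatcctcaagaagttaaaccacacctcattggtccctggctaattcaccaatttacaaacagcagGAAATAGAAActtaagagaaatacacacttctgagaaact
ISG20: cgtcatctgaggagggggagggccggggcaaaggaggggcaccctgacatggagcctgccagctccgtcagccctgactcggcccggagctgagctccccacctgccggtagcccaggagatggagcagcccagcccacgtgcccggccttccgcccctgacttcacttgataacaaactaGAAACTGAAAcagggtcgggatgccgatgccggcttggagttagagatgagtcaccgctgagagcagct
IRF1: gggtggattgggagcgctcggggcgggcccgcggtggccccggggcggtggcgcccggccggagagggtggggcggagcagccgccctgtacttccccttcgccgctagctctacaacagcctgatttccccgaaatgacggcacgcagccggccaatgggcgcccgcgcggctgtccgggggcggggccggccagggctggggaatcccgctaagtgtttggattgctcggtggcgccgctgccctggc
RefSeq lists 2 starts for RSAD2, and the one shown, start 2, is the one with a match. ISG15 holds 2 overlapping matches, whose first bases lie at −113 and −107 from the start, and IFI44L holds matches at −164 and −73. IFITM1 has a further match at −6 that runs over the start and is not marked. IRF1 has no match to this core, but holds the gamma-activated sequence, searched as TTC, a gap of any 3 bases, and GAA, at −124.

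Matches to the ISRE core were found among the members that fell and among those not called. In windows that run from 250 bases before to 50 after each start, 3.57% of all 35116 windows in the RefSeq table held that pair of GAAA on either strand, and 4.38% of 27305 genes did in at least 1 window. Among the measured members the share was 19 of 29. It was 9 of the 12 with a promoter that fell (75%) and 10 of the 17 that were not called (58.8%). HERC6, SP100 and SP110 fell and had no match, whereas IFIT5, with 3 matches, and BST2, DDX60, IFI44, IFI27, SAMD9, PARP9, PARP14, DTX3L and ISG20 had matches and were not called. The gamma-activated sequence, found in 9.38% of all genes, was in 3 of the 12 and 7 of the 17. The ISRE core and the gamma-activated sequence can overlap, as they do in MX1 at −196 and −189, and a match describes the letters only.

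In the cells given siRNA against ESRP1 and ESRP2, 15 of the 34 measured members fell, 0 rose and 19 were not called. Fell means lower in siESRP than in siGFP, as no untransfected cells give a baseline. The genes that fell, from the largest difference, were RSAD2, ISG15, MX2, IFI44L, IRF7, IFITM1, HERC5, MX1, IFI6, IFIT1, IFIT3, IFIT2, HERC6, SP100 and SP110. The share was 44.1%, where 20.2% of all rows were called, 9.31% lower and 10.9% higher. A fall of at least 1.5-fold was called in 7 members (20.6%), against 2.4% of all rows. The 32 members with a mean of at least 100 all lie among the brighter rows, of which 13.5% were called lower. The members' median log2 difference was −0.26, beside −0.02 over all rows, and 29 of them had a difference below 0, as had 53.0% of all rows. At an unadjusted limma p under 0.05, 18 members were lower and 2 higher (16.3% of all rows each way). The members were chosen with earlier results of these data known, so these shares describe the list only. All these values come from whole-culture RNA, in which fewer cells with a transcript and less of it per cell cannot be told apart.

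The number of members called lower was 6 with the arrays as deposited, where HERC6, IFIT1, IFIT2, IFIT3, MX1, IFI44L, IFI6, SP100 and SP110 were not called (adjusted p of 0.0570 to 0.416), and 9 without siGFP replicate 1 or without siGFP replicate 4. RSAD2, ISG15, IFITM1, HERC5 and IRF7 were called lower under each of the 20 settings run, the reported one included. In 14 of the 15 genes that fell, every siESRP array lay below every siGFP array, the exception being HERC6. For each of the 14 the exact two-sided permutation p was 0.0286, the smallest that 4 against 4 arrays can give. Groups that are fully apart always give this value, so it adds nothing to the separation itself. Over all members the groups were apart with siESRP lower in 16 (12% of all rows) and with siESRP higher in 1 (12.6% of all rows).

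**Figure D1:**
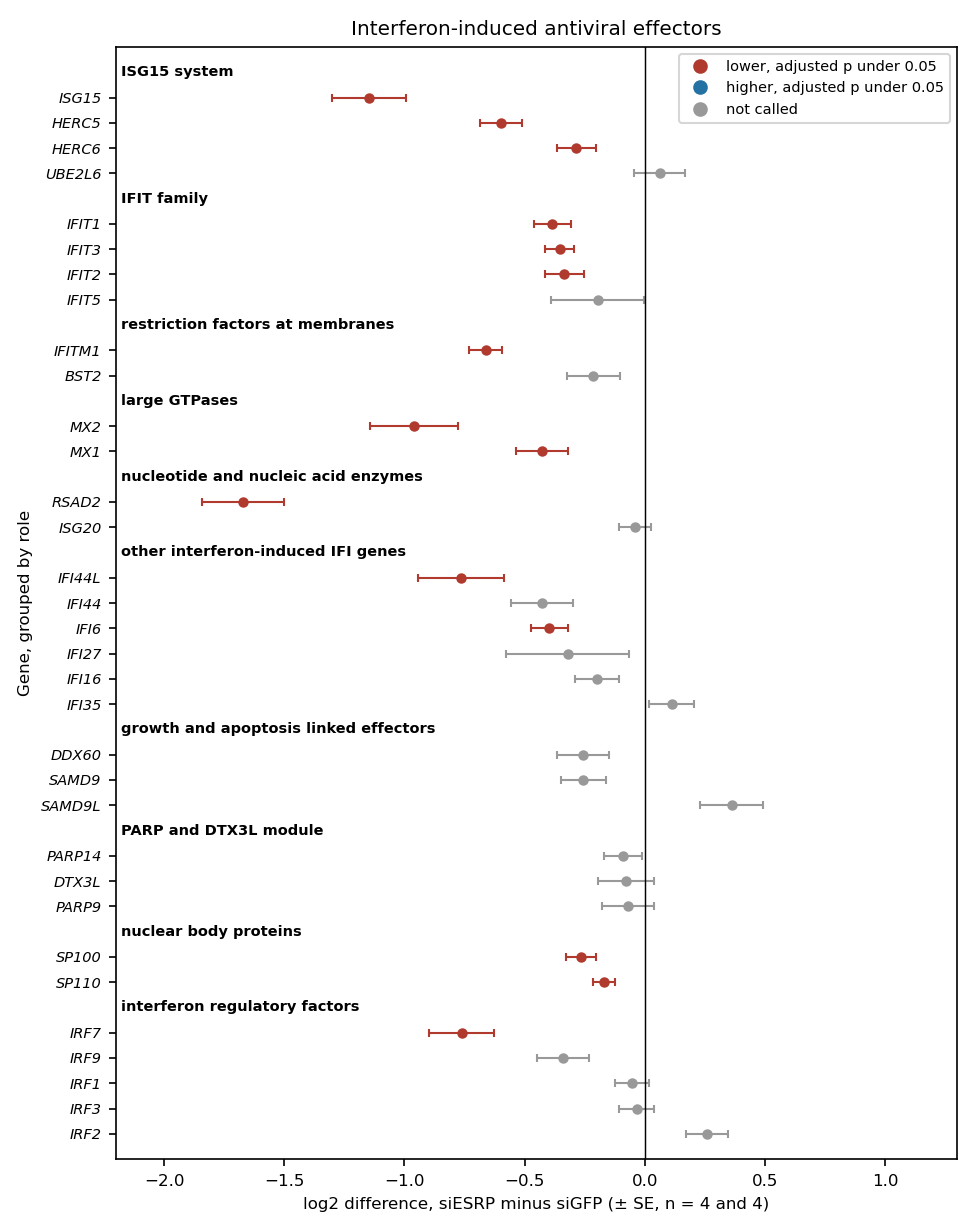
Log2 difference between siESRP and siGFP (x axis) with its SE for 33 measured members (y axis, grouped by role; CMPK2, below 0 on every array, is left out). Red points are the 15 genes that fell, from RSAD2 at −1.67 to SP110 at −0.17; grey points were not called, and no gene is blue because none rose.

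RSAD2, also called viperin, had the largest difference of the list. Its intensities were 803, 540.5, 614 and 604 in siGFP and 247, 199.8, 156 and 199 in siESRP. The highest siESRP array was thus well under the lowest siGFP array. The fall was 3.19-fold (log2 difference −1.67 ± 0.17 SE, limma adjusted p = 0.000916). The neighbouring gene CMPK2, a mitochondrial nucleotide kinase that is usually induced together with RSAD2, was below 0 on all 8 arrays, so its row gave no level and no difference. ISG20, an exonuclease that degrades viral RNA, ran from 340.5 to 381 in siGFP and from 332 to 392 in siESRP, with a log2 difference of −0.04 (95% interval −0.20 to 0.12).

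Of the 4 measured genes of the ISG15 system, 3 fell. ISG15, the ubiquitin-like protein itself, was at 839, 529.9, 612 and 595 in siGFP and at 297, 325, 246 and 280.5 in siESRP. The groups were far apart although siGFP replicate 1 stood above its group, and the fall was 2.21-fold (log2 difference −1.15 ± 0.15 SE, adjusted p = 0.00283). HERC5, the ligase that attaches ISG15 in human cells, was at 433, 551, 566 and 513 in siGFP and at 340.5, 326, 349 and 338 in siESRP. Its siESRP arrays were close to each other, and it fell 1.51-fold (adjusted p = 0.00398). HERC6, the adjacent relative of HERC5, was at 1167, 1258, 1339.5 and 1206 in siGFP and at 1167, 974, 1006 and 940.5 in siESRP. These groups touch at replicate 1, the fall was 1.22-fold (adjusted p = 0.0468), and the call was lost without any array other than siESRP replicate 1 (adjusted p of 0.0616 to 0.110). UBE2L6, the enzyme that carries ISG15 to the ligase, had a log2 difference of 0.06 (95% interval −0.19 to 0.31) at 1229.9 ± 98.4 and 1290.5 ± 172 (SD, n = 4 each).

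The IFIT genes lie side by side and encode proteins that bind viral RNA. IFIT1, which recognizes RNA lacking host cap methylation, was at 3492, 3713, 3462 and 3934 in siGFP and at 3070.4, 2929, 2526 and 2676 in siESRP. IFIT2 was at 3354, 3026, 3224 and 3412 against 2889, 2687, 2293 and 2474. IFIT3, a partner that stabilizes IFIT1, was at 4096, 4704, 4214 and 4372 against 3569, 3311, 3511 and 3209. In all 3 the groups were apart by a small margin, and the falls were alike in size: 1.31-fold, 1.26-fold and 1.28-fold (adjusted p = 0.0131, 0.0271 and 0.00712). IFIT2 lost its call without siGFP replicate 1, 3 or 4 or siESRP replicate 4 (adjusted p of 0.0615 to 0.0733). IFIT5, the fourth gene of the cluster, varied more within siGFP, from 1369.9 to 2507, and its log2 difference of −0.20 was not called (95% interval −0.65 to 0.26).

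At the cell membranes, IFITM1, which blocks fusion of viruses at the cell surface, was at 3152, 3056, 2869 and 3197 in siGFP and at 2097, 2039.9, 1874 and 1761 in siESRP. The spread within each group was small beside the gap between them, and IFITM1 fell 1.58-fold (log2 difference −0.66 ± 0.07 SE, adjusted p = 0.00104). IFITM1 is a close relative of IFITM2 and IFITM3, so how far its row measures IFITM1 alone is uncertain. BST2, or tetherin, which holds budding virus on the cell, was at 778, 759, 757 and 781 in siGFP and at 736, 743, 672 and 526 in siESRP. Every siESRP array was the lower, but replicate 4 was far below the other 3 and the difference of −0.21 was not called (adjusted p = 0.241).

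Both measured large GTPases fell, by different amounts. MX2, which acts at the nuclear envelope against retroviruses, was at 879, 785, 729.6 and 833 in siGFP and at 490.0, 536, 361 and 308 in siESRP. It fell 1.94-fold with a wide spread among the siESRP arrays (log2 difference −0.96 ± 0.18 SE, adjusted p = 0.0110). MX1, which acts in the cytoplasm against influenza virus among others, was at 2951, 3152, 2816 and 3214 against 2492, 2561, 2141 and 1884. The siESRP arrays 3 and 4 were again the low ones, and the fall was 1.34-fold (adjusted p = 0.0314). Whether the falls of MX1 and MX2 differ was not tested. The MX1 call was lost without siGFP replicate 1, 2 or 4 or siESRP replicate 3 (adjusted p of 0.0646 to 0.0820).

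Of the 6 other genes named IFI, for interferon-induced, IFI44L and IFI6 fell. IFI44L was at 676, 584, 554 and 613 in siGFP and at 432, 367, 409.8 and 247 in siESRP, where replicate 4 was lowest. The fall was 1.70-fold (adjusted p = 0.0245), and the call was lost without siGFP replicate 1, 2 or 4 or siESRP replicate 2 (0.0531 to 0.0675). Its neighbour IFI44 went from 1014 ± 83.5 to 760.0 ± 126 (SD, n = 4 each), with overlap at replicate 1, which was at 902 in each group after rounding, and was not called (log2 difference −0.43, adjusted p = 0.0613), though it was without siESRP replicate 1 (0.0388). IFI6, a small protein that protects against flavivirus replication, was the brightest member, at 5985, 5189.6, 5777 and 5411 in siGFP and 4704, 4199, 4272 and 3818 in siESRP. It fell 1.32-fold (adjusted p = 0.0119). IFI27 ranged from 321 to 743 among the siESRP arrays, the widest spread of any member on the log2 scale, so its difference of −0.32 was not called (95% interval −0.93 to 0.29). IFI35 (0.11) was not called, and IFI16, a DNA sensor, was dim, at 53.5 and 46.6.

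**Figure D2:**
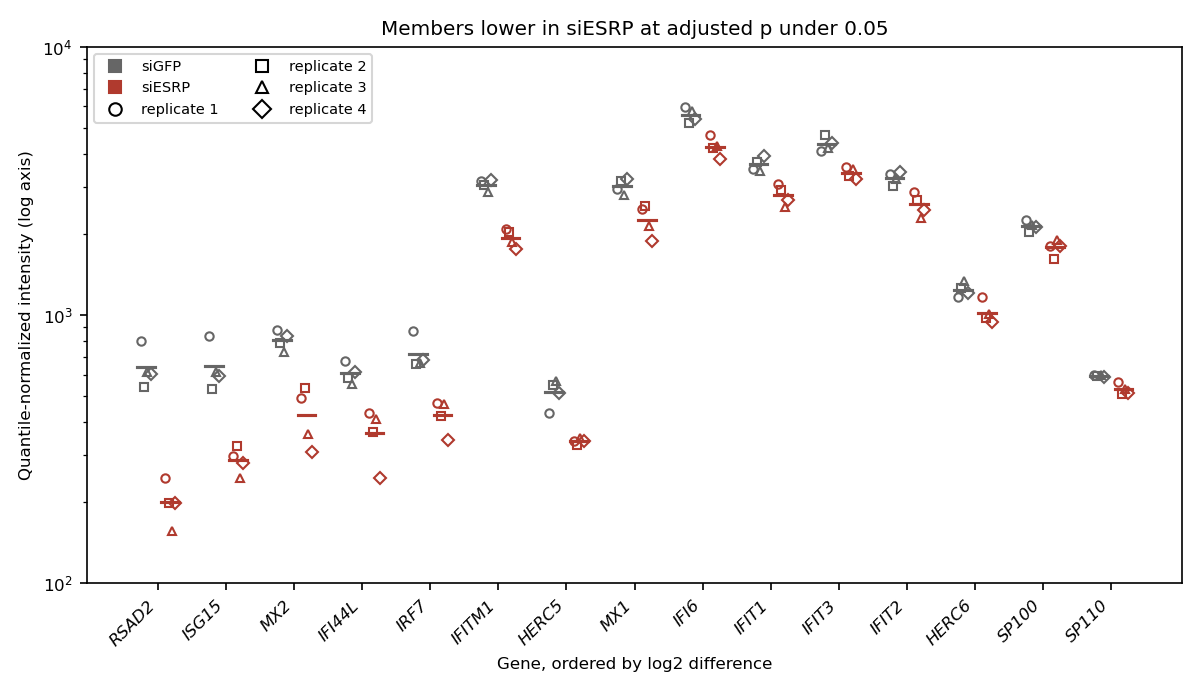
Quantile-normalized intensity (y axis, log scale) of the 15 members that fell (x axis, from the largest log2 difference on the left), with 1 marker per array, grey for siGFP and red for siESRP, and a bar at each group mean. The groups are far apart in RSAD2 (156 to 247 against 540.5 to 803) and touch in HERC6, where replicate 1 is at 1167 in each group.

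SP100 and SP110 are proteins of nuclear bodies, and both fell slightly. SP100 was at 2264, 2039.9, 2166 and 2126 in siGFP and at 1805, 1621, 1913 and 1815 in siESRP, a fall of 1.20-fold (adjusted p = 0.0240). SP110 was at 597, 591, 599 and 587 against 563, 506, 531 and 514, a fall of 1.12-fold (adjusted p = 0.0362). The siGFP arrays of SP110 nearly coincide, and these were the smallest falls of the 15. SP100 lost its call without siGFP replicate 1, 3 or 4 or siESRP replicate 1 or 4 (adjusted p of 0.0533 to 0.0604), and SP110 without any array other than siESRP replicate 1 (0.0598 to 0.0914).

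No gene was called in the group of SAMD9, SAMD9L and DDX60 or in that of PARP9, PARP14 and DTX3L. The neighbours SAMD9 and SAMD9L, which restrict poxviruses by shutting down translation, had log2 differences of opposite sign, −0.26 and 0.36 (adjusted p = 0.102 and 0.0996). SAMD9L was at 325, 483, 402 and 379.6 in siGFP and at 512, 476, 581 and 464 in siESRP, with overlapping groups, and was called higher without siGFP replicate 2 (adjusted p = 0.0390). DDX60, a helicase that promotes RNA sensing, was lower on every siESRP array (654 to 896 against 914 to 1061), but its difference of −0.26 was not called (adjusted p = 0.155). PARP9, PARP14 and DTX3L, an ADP-ribosylation and ubiquitin module, had differences of −0.07, −0.09 and −0.08, with 95% intervals that ran from −0.35 at the lowest to 0.20 at the highest.

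Among the interferon regulatory factors, IRF7 was the one that fell. It was at 869.6, 659, 664 and 680.1 in siGFP and at 468, 420.2, 466 and 341 in siESRP. The siGFP replicate 1 stood above the rest, yet the highest siESRP array was still under the lowest siGFP array, and the fall was 1.69-fold (log2 difference −0.76 ± 0.14 SE, adjusted p = 0.00857). IRF9, a DNA-binding part of the complex that reads the ISRE, went from 2078 ± 171 to 1648 ± 220 (SD, n = 4 each) without a call (log2 difference −0.34, adjusted p = 0.0684; 0.0367 and called without siESRP replicate 2). IRF3, which starts interferon transcription and is not itself interferon-induced, and IRF1 had differences of −0.03 and −0.05, with 95% intervals of −0.21 to 0.14 and −0.22 to 0.11. IRF2, which opposes IRF1, was higher on every siESRP array (494 to 557 against 379 to 481), with a difference of 0.26 that was not called (adjusted p = 0.0847) except with array weights.

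The siESRP arrays differed among themselves in how low the members were. Over the 32 members with a mean of at least 100, the median log2 deviation from each gene's siGFP mean was −0.16, −0.24, −0.28 and −0.42 on siESRP replicates 1 to 4, and between −0.02 and 0.03 on the siGFP arrays. Over all rows the same median lay between −0.02 and 0.01 on every array. Of the 32 members, 13 had their lowest value on siESRP replicate 4 and 7 on siESRP replicate 3, while 11 had their highest on siGFP replicate 1. Without siESRP replicate 4, 11 members were called lower. Across these members the siGFP intensity and the log2 difference had a Spearman correlation of −0.17, given as a description over genes that share the same arrays.

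**Figure D3:**
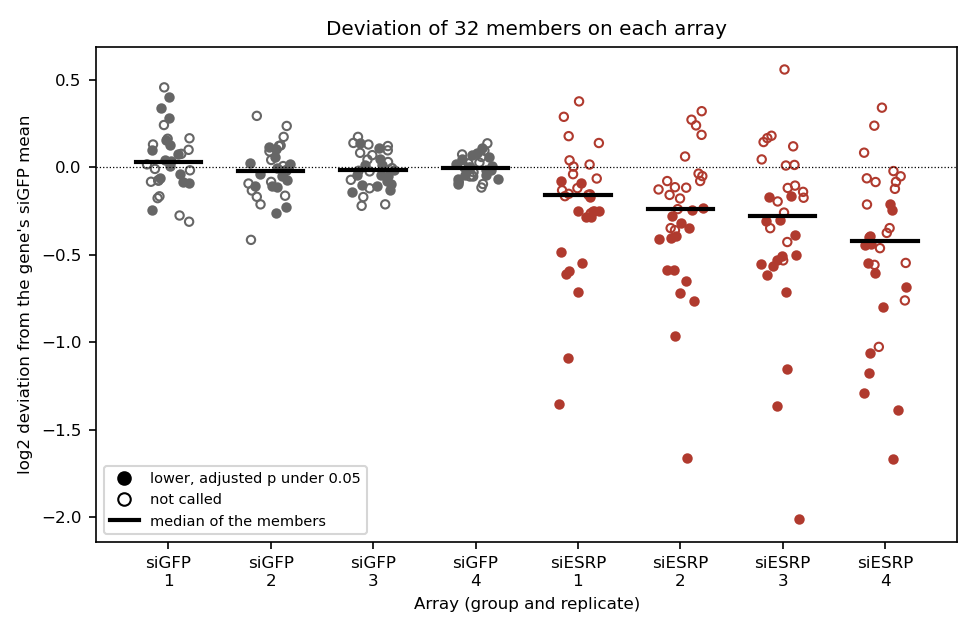
Log2 deviation of 32 members from their own siGFP mean (y axis) on each of the 8 arrays (x axis). Filled points are the 15 genes that fell, open points were not called, and black bars are medians. The siESRP medians run from −0.16 to −0.42, and the siGFP points scatter around 0 by construction.

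Among 20 measured genes of interferon signalling (ligands, receptors, JAK and STAT transducers and feedback inhibitors) 1 fell and 3 rose, with a median log2 difference of 0.04. The share called, 20%, is close to the 20.2% of all rows. The lists within it differed in sign: 4 of 5 receptors had a difference above 0 (median 0.38) and all 5 feedback inhibitors one below 0 (median −0.23; 3 lower at an unadjusted limma p under 0.05). Whether these lists differ was not tested. All 6 measured interferon genes had group means under 50, IFNB1 among them at 29.3 and 19.7. IFNE, an epithelial interferon, was called higher at means of 22.9 and 45.3. The receptor chains of type I interferon were not called: IFNAR1 was at 591, 469, 668 and 598 in siGFP and at 1009.5, 975, 649 and 821 in siESRP (log2 difference 0.56, adjusted p = 0.0588), and IFNAR2 had a difference of 0.38 (adjusted p = 0.207). IFNGR2, a chain of the interferon-gamma receptor, was at 1546 ± 329 in siGFP and 2231 ± 166 in siESRP (SD, n = 4 each). It rose 1.46-fold (adjusted p = 0.0450), a call that was lost without any array other than siGFP replicate 2 (0.0619 to 0.105).

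Among the transducers, JAK1 and TYK2 had log2 differences of 0.02 (95% interval −0.13 to 0.17) and 0.11 (−0.04 to 0.26) and were not called. STAT3 rose 1.16-fold (adjusted p = 0.0130). Of the inhibitors, PTPN2, a phosphatase that turns off JAK1, fell 1.33-fold from 1019 ± 101 to 764 ± 69.6 (adjusted p = 0.0223; 0.0535 to 0.0590 without siGFP replicate 2 or 4 or siESRP replicate 1 or 4). Without siGFP replicate 4, siESRP replicate 1 or siESRP replicate 4, 2 of the 20 signalling genes were called in place of 4. SOCS1 and SOCS3, which are induced by the pathway and block the kinases, had differences of −0.27 and −0.06 and were not called. Of the further IRF genes measured, IRF4 was not called, IRF5 rose 1.40-fold (adjusted p = 0.00141) and the dim IRF8 fell from 61.2 to 43.6 (0.0277; not called in 5 of 8 fits that leave out an array, up to 0.0721).

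Other interferon-induced genes were low in part. Of 12 measured RNA sensors and OAS genes, 6 fell (50%, beside 9.31% of all rows) and 0 rose (median log2 difference −0.32; 1 of the 12 was higher at an unadjusted limma p under 0.05), led by OAS3 at 1.99-fold, IFIH1 at 1.69-fold and DHX58 at 1.64-fold (adjusted p = 0.000715, 0.00110 and 0.00481). These 3 were called whichever array was left out, and the other 3, OAS1, OAS2 and RIGI, in 2, 3 and 2 of those 8 fits. The kinase EIF2AK2 and the adaptor MAVS had differences of 0.02 and −0.04. The list of sensors and OAS genes was also chosen with earlier results known, so its share is a description only. Of 10 measured genes more typical of interferon gamma, 1 fell (10%, about the share of all rows) and 0 rose. Their median log2 difference was −0.22, with 6 of the 10 below 0. At an unadjusted limma p under 0.05, 2 of them were lower and 1 higher. The gene that fell was GBP5, at means of 46.8 and 19.0 (called in 2 of the 8 fits). CXCL9, CXCL10 and IDO1 were also under 50 in both groups.

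**Figure D4:**
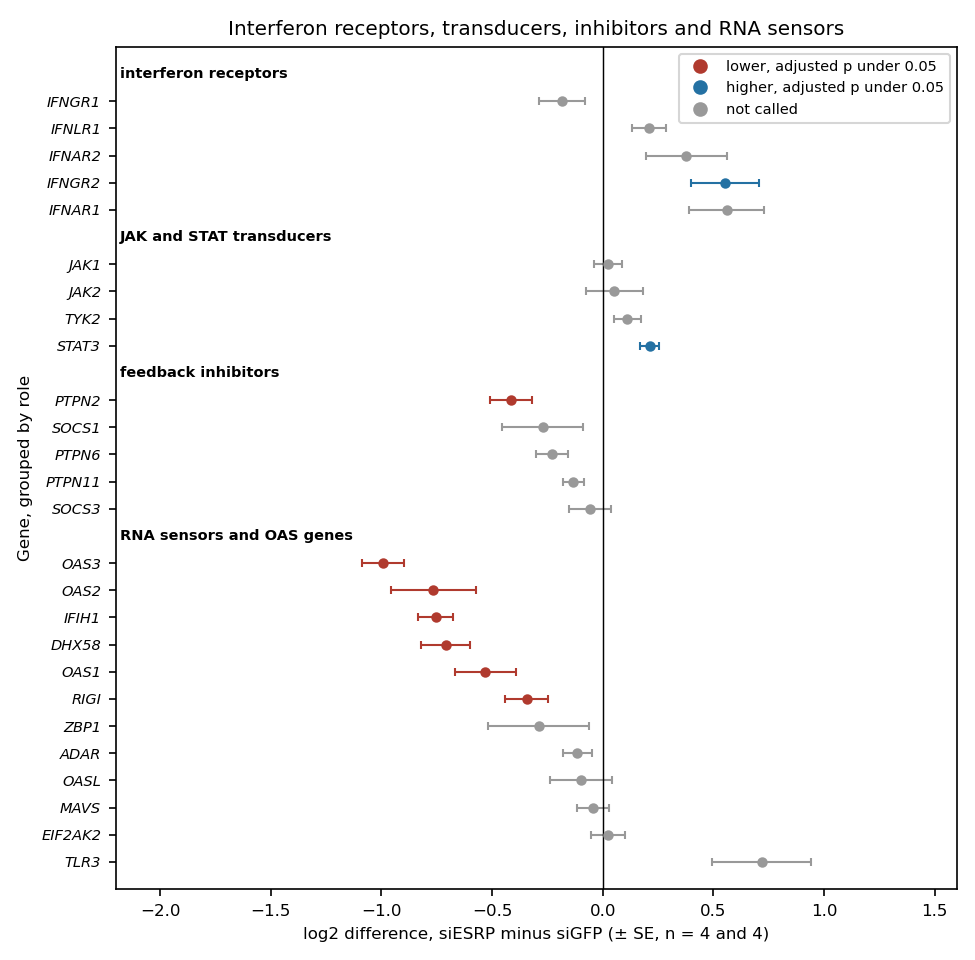
Log2 difference between siESRP and siGFP (x axis) with its SE for interferon receptors, JAK and STAT transducers, feedback inhibitors, and RNA sensors with OAS genes (y axis, grouped by role). Red points fell and blue points rose. Of 12 sensor and OAS genes 6 fell, OAS3 the most at −0.99, while of the receptors and transducers IFNGR2 and STAT3 rose and none fell.

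Markers of other cell types were mixed. Of 14 leukocyte markers 10 were measured, 6 of them with both group means under 50. PTPRC, the defining surface protein of leukocytes, was at 10.7 and 12.8 and CD3E at 6.97 and 12.9. The summed intensity of the 10 was 947 to 1059 in siGFP and 1029 to 1255 in siESRP, and the largest part of it was CD68, a lysosomal protein found in many cells, which rose from 551 to 747. CSF1R fell from 154 to 80.9, and CD14 was at 102 and 112. Of the 5 plasmacytoid dendritic cell markers, LILRA4 had a mean below 0 in each group, CLEC4C was at 89.1 and 94.2, and IL3RA at 129 and 114. The dim TCF4 rose 1.71-fold, IRF8 fell as given above, and the sum was 265 to 334 in siGFP and 282 to 307 in siESRP. The 7 measured fibroblast markers summed to 494 to 561 in siGFP and 406 to 483 in siESRP, without overlap and with siESRP lower. COL1A1 was down from 252 to 182, and LUM was at 9.06 and 8.84. The 6 endothelial markers summed to 351 to 411 in siGFP and 426.5 to 509 in siESRP without overlap. The largest part of that sum was CDH5, and 4 of the 6 markers had both group means under 50. CDH5 rose from 241 to 324 (adjusted p = 0.0333, called in 2 of the 8 fits that leave out an array), TEK fell from 30.2 to 22.1, and PECAM1, a defining endothelial gene, was at 15.7 and 19.2. The part of these markers in the members' differences was not tested.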

How the data were processed

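The authors deposited 1 table of linear intensity values, 18495 gene-level rows by 8 arrays. The labels' protocols describe 1 µg of total RNA depleted of ribosomal RNA and biotinylated sense-strand DNA. How background was corrected and probes were summarized is not given in the sources used here. Between 2.70% and 4.02% of values per array are below 0, and array medians differ. The number of arrays limits the precision.

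The linear values were brought to a common distribution (quantile normalization), anything below 0 was raised to 0, and log2(value + 1) was passed to limma 3.58.1 (R 4.3.3; lmFit and eBayes, all 8 arrays, no covariate, two-sided, Benjamini-Hochberg over all rows, threshold 0.05). Symbols are those of the platform annotation in GEO: 14577 rows had 1 symbol, 2849 several and 1069 none. In simulated data of 18495 rows with the same 2 groups, the steps recovered 53 of 100 rows with a true 1.5-fold change and 84 of 100 with a true 2-fold change. They called 4 rows without one. Far fewer rows were changed there than the 3729 called in the data, and the noise of each row was drawn on its own. The counts therefore do not give the recovery or false calls in these data.

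Values on each array are given for members that were called with a group mean of at least 100. Values of other members, and the genes named beyond JAK1, TYK2, IFNAR1, IFNAR2 and up to 3 called genes per pathway list, were chosen after their values were seen. The members and lists were chosen with earlier results of these data known. Motifs were searched as letters on both strands. Alternatives covered scaling, pseudocount, floor, dim rows, the variance model, array weights, thresholds, rows per gene, the replicate block and leaving out each array.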

Additional observations from a re-analysis of the deposited data

Results flagged for a closer look

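Within each group of 4 arrays, the members were checked for an array that stands apart, by the gap to its nearest neighbour as a share of the group's range. Of 66 groups of values checked 1 did, where chance gives about 1 in 20, or 3.3. It was IRF7 in siGFP, with a ratio of 0.900 against Dixon's 95% critical value. There replicate 1 was high, at 869.6, beside 659 to 680.1 on the other arrays. Without siGFP replicate 1 the IRF7 row was still called lower.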

How the results depend on the processing

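Values near background have no reliable fold, and a fall of 1.5-fold or less can be missed with 4 arrays a group. Of 645 values of single members under 19 alternatives, 564 kept their side of the threshold, 73 were no longer called and 8 became called. The sign turned in 5 values of 4 genes near 0 (DTX3L, IRF3, PARP9 and UBE2L6), 0 of them called. The members' median log2 difference ran from −0.30 to −0.24. The median over all rows was −0.10 as deposited and −0.11 with median scaling, where the members were at −0.29 and −0.30. The count of 15 members lower and the 3729 rows called became 6 and 1673 with arrays as deposited (628 rows lower, 1045 higher), 6 and 1808 at adjusted p under 0.01, and 7 and 1309 with at least 1.5-fold. Leaving out each array in turn gave 9 to 15 members lower, 2719 to 3793 rows called, 0 to 1 members higher, and 2 to 4 signalling genes called in place of 4. With array weights 1 member, IRF2, was higher. At adjusted p under 0.01, and also with at least 1.5-fold, 1 signalling gene was called.

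Replicate numbers are shared between the groups, and the labels do not say whether same-numbered arrays were handled together. The deviations of same-numbered arrays correlated at 0.15, 0.09, −0.27 and −0.02, and only number 1 correlated best with its own. With 4 arrays a group, each centred on its group mean, these values cannot settle whether the arrays are paired. With the replicate block 7 members were lower, 1 signalling gene was called and 2292 rows were called, 2193 of them shared with the reported fit.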
